A study of Rattus norvegicus with 24 samples.

Results

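The 26S proteasome is built from a barrel-shaped core and a regulatory cap, and its subunit genes were examined here in the hypothalamus of rats under restraint, with and without an inhaled odorant. Members were all probe sets whose single gene symbol has the form Psma, Psmb, Psmc or Psmd followed by a number, leaving out Psmb8, Psmb9 and Psmb10, the interferon-inducible catalytic subunits. They came to 44 probe sets of 33 genes, out of 31042 probe sets in all. The core had 15 probe sets of 13 genes (7 of Psma, 8 of Psmb) and the cap 29 probe sets of 20 genes (9 of Psmc, 20 of Psmd). Psmb6, a catalytic subunit, had no member, since its probe set carries more than 1 symbol. Psmd5, Psmd9 and Psmd10 meet the rule by name, although they encode chaperones of cap assembly and not subunits.

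Wistar rats, all male, outbred and aged 7 weeks, gave 1 hypothalamic block and 1 array each, in 3 groups of 6. Linalool rats were held in restraint for 2 h in air into which 20 µL of (R,S)-linalool had evaporated; linalool is a scented monoterpene alcohol of lavender and other plants. Stress rats were restrained for the same time without it, and control rats were not restrained. The authors normalized the linalool arrays together with the stress arrays, and the stress arrays a second time together with the control arrays, so each comparison stays inside 1 set of 12 arrays, both comparisons share the stress rats, and control and linalool rats were not compared.

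Proteins tagged with ubiquitin chains are bound by the cap, unfolded and passed into the core, where they are cut into short peptides. In the core, the Psma genes encode the outer alpha rings that form the gate, and the Psmb genes the inner beta rings, which hold the cutting sites. In the cap, the Psmc genes encode the ring of ATPases that unfolds the substrate, and the Psmd genes the scaffold, the ubiquitin receptor, the lid and its deubiquitinase. Neurons rely on this system for protein turnover at synapses.

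The values are log2 signals as the authors deposited them, and their spread between arrays differs between probe sets by orders of magnitude. A probe set whose residual SD (the SD between arrays of 1 group) was below 0.01 on the log2 scale is called compressed here. This held for 27 of the 44 members in the linalool set and 36 in the control set, against 83.7% and 83.5% of all probe sets. Differences are therefore given in residual SDs, on which scale a difference between 2 means of 6 has a standard error of 0.577, and in log2 units only where the probe set was not compressed. The residual SD depends on the set: 25 members were compressed in both, 11 only in the control set, 2 (Psmb7 and 1371348_at of Psmb5) only in the linalool set and 6 in neither. Over the same 6 stress arrays, the values of a member in one set correlated with those in the other at a median r of 0.976, from 0.0371 (1379850_at of Psmc6) to 0.999, as a description over 6 arrays that are the same RNA. A signal per block does not tell fewer cells of a type from less RNA per cell.

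Of 8 hypothalamic markers, 7 had a probe set and Agrp had none. Averaged over all arrays, Pmch, Avp and Oxt had 12.25, 11.56 and 10.78 log2 signal, Hcrt had 9.65 and Nkx2-1 had 8.39, while Pomc and Sim1 had 7.42 and 6.81. Those last 2 values lay above only 26.6% and 6.92% of probe sets. None of the 7 passed the test in either comparison. Array probe sets that are not genes of the tissue differed as well. Among 57 control probe sets, those for the Bacillus poly-A spikes were higher in linalool than in stress rats in 15 of 27 cases and lower in 0. Most of these higher ones were compressed. Those that were not were 3 prime probe sets, higher by 0.341 (phe), 0.231 and 0.175 (dap) and 0.160 log2 units (thr). The bio and cre hybridization spikes were higher in 0 and lower in 4 of 18, and the 12 rat controls were higher in 2 and lower in 6. The 2 higher ones were the 5 prime and middle probe sets of beta-actin (0.199 and 0.0767 log2 units, adjusted p = 0.000786 and 0.00879, limma). Its 3 prime probe set did not pass (adjusted p = 0.109). GAPDH was lower at its 5 prime, middle and 3 prime probe sets, by 0.103 and 0.132 log2 units at the first 2. Between stress and control rats, 1 of the 57 passed. A difference in how the arrays of linalool and stress rats were processed cannot be told apart from the odorant.

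Under linalool, most genes of the cap and fewer of the core had at least 1 probe set called higher than under stress alone. For Psmd2, Psmd4, Psmd5, Psmd7, Psmd9 and Psmd13 of the cap and Psma1 and Psma4 of the core, the only such probe set was compressed. With quantile normalization none of those probe sets passed. Of the 44 members, 24 rose and 2 fell (adjusted p under 0.05, limma, Benjamini-Hochberg over all 31042 probe sets), and 18 did not pass. Of all probe sets, 25% passed, 14.2% higher and 10.8% lower, against 54.5% higher and 4.55% lower among the members. The median difference was 2.18 residual SDs over the members and -0.0136 over all probe sets, and 38 members had a positive difference. In 16 members every linalool rat lay above every stress rat, and in 1 every linalool rat lay below, where 7.56% and 4.36% of all probe sets did so. Counted by gene, 20 of the 33 had at least 1 probe set that rose, 2 had one that fell (Psma6 and Psmd11) and 11 had none past the threshold.

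The calls were not spread evenly over the scale of the values. Of the 17 members that were not compressed, 15 rose, 1 fell and Psmb1 did not pass, with a median of 4.01 residual SDs. Of all 5058 probe sets that were not compressed, 28.4% were higher and 21.3% lower. Of the 27 compressed members 9 rose and 1 fell, with a median of 1.17 residual SDs, where 11.4% and 8.79% of compressed probe sets did. On the deposited scale those 9 differences were very small, from 0.000183 (Psmd4) to 0.000386 log2 units (1382385_at of Psmc6). The 1 that fell, 1376069_at of Psmd11, differed by -0.000199. With quantile normalization 15 members rose and 1 fell, where 4.92% of all probe sets were higher and 3.48% lower. All 15 were uncompressed members, and none of the 9 compressed ones passed.

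**Figure D1:**
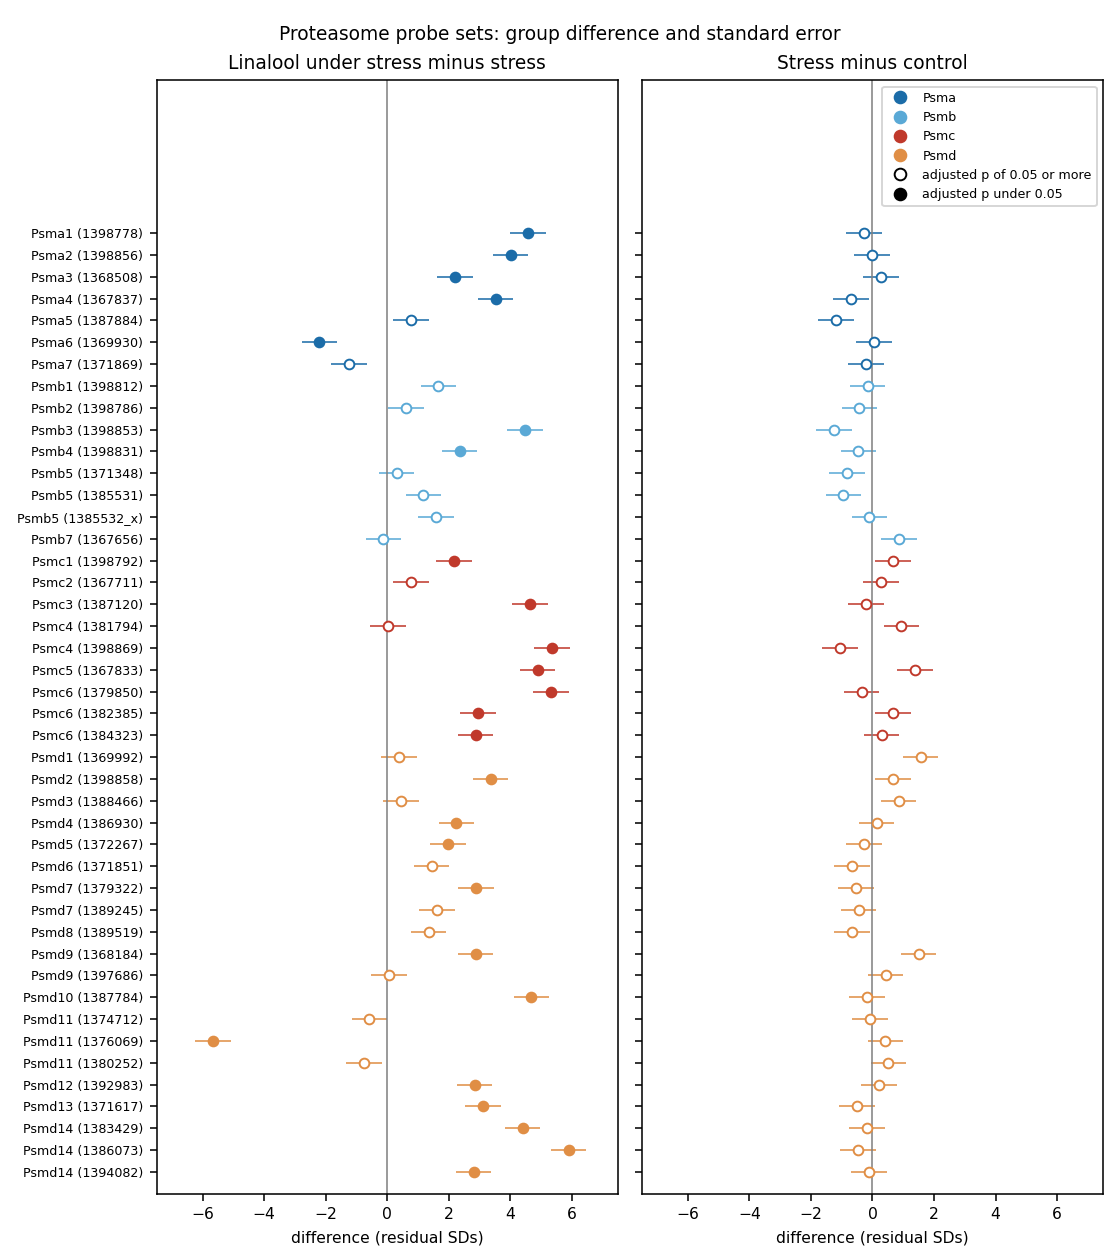
Difference between group means for each of the 44 proteasome probe sets, in residual SDs with the standard error of 0.577 as bars: linalool under stress minus stress on the left, stress minus control on the right. Colours give the subgroup, and filled points have an adjusted p under 0.05 (limma): 24 to the right of 0 and 2 to the left of it under linalool, and 0 between stress and control.

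Promoters were read for all members, to set the genes that rose beside the others. Of the 33 genes, 29 had a promoter in the RefSeq table (assembly GRCr8, 250 bases before to 50 after the start), among them 18 of the genes that rose. Of 4 short motifs, searched on both strands, the CCAAT box bound by NF-Y (CCAAT) was found in 16 of the 29 (55.2%), against 36.8% of the promoters of 13243 genes on the array and 37.5% of all 33469 promoters. It was in 12 of the 18 genes that rose (66.7%) and 4 of the other 11 (36.4%). Of those 12, Psma1, Psma4, Psmd4, Psmd7, Psmd9 and Psmd13 rose only at compressed probe sets, none of which passed with quantile normalization. The same held for Psmd2 and Psmd5, which lack the CCAAT box. The contrast was not tested. The GC box (GGGCGG) was in 20 of 29 (69%; 55.7% of array genes, 33.1% of all) and the ETS-type motif (CCGGAAG) in 10 of 29 (34.5%; 14.3% and 8.75%). The antioxidant response element core (TGACNNNGC), to which Nfe2l1 and Nfe2l2 bind, was in 6 of 29 (20.7%; 14.1% and 12.1%), in 2 of the 18 that rose (11.1%) and 4 of the other 11 (36.4%). A match is a run of letters and not a binding site. The stretches of 5 genes follow, each with the 100 bases directly before its start, 5′ to 3′ on the gene's strand, with motif matches in capitals; in Psmc6 an ETS-type motif and a GC box touch, and Psmb5 is shown as a catalytic gene, which did not pass.
Psmb3, chr10:83193687-83193786, plus strand: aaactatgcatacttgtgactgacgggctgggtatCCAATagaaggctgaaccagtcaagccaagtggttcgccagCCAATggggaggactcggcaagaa
Psmc4, chr1:92485061-92485160, minus strand: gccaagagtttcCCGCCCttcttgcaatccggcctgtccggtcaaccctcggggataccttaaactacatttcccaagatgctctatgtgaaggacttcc
Psmc6, chr15:21022214-21022313, plus strand: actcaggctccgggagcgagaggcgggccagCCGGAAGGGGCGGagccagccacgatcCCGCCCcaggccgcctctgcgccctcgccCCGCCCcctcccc
Psmd10, chrX:109453606-109453705, minus strand: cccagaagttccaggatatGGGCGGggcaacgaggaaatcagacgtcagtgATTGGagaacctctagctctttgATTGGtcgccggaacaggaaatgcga
Psmb5, chr15:32047380-32047479, minus strand: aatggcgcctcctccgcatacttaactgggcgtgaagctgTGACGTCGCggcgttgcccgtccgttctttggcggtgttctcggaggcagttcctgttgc

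In the alpha ring of the core, 4 of 7 genes rose and 1 fell. Psma2 had a lowest, median and highest log2 signal of 10.66, 10.70 and 10.85 in linalool rats, against 10.20, 10.34 and 10.54 in stress rats. The groups did not overlap, and the difference was 0.39 with a standard error of 0.0553 (adjusted p = 0.000916, limma). Psma1 was compressed: its values, in residual SDs from the mean of the 12 arrays, were 1.21, 2.08 and 4.08 in linalool rats and -3.34, -2.45 and -0.6 in stress rats. Its groups did not overlap either, at a difference of 4.57 residual SDs (adjusted p = 0.000726, limma), but with quantile normalization the difference was -0.56 and did not pass. Psma4 rose by 3.52 residual SDs (adjusted p = 0.00234) and Psma3 by 0.19 log2 units (SE 0.0483, adjusted p = 0.0177).

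Psma6, also of the alpha ring, was lower in linalool rats. It had 11.08, 11.12 and 11.16 log2 signal in linalool rats, against 11.15, 11.30 and 11.39 in stress rats, and 4 of the 6 linalool rats lay below every stress rat. It fell by 0.16 on the log2 scale (SE 0.0407, adjusted p = 0.0173, limma). Psma5 and Psma7 did not pass, at 0.764 and -1.25 residual SDs.

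The catalytic subunits of the beta ring did not pass under linalool. Psmb5, which carries the chymotrypsin-like activity, has 3 probe sets. In residual SDs from the mean of the 12 arrays, 1371348_at had -0.632, 0.215 and 0.744 in linalool rats and -1.57, -0.391 and 1.89 in stress rats, a difference of 0.3 (adjusted p = 0.743, limma). The second, 1385531_at, had -0.559, 0.695 and 1.89 in linalool rats and -2.37, -0.59 and 0.573 in stress rats, a difference of 1.17 (adjusted p = 0.162). The third, 1385532_x_at, had -0.68, 0.686 and 2.76 in linalool rats and -1.87, -0.809 and 0.375 in stress rats, a difference of 1.59 (adjusted p = 0.0725; 2.08 with adjusted p = 0.0391 without linalool rat 5). Linalool and stress rats overlapped at each, and all 3 probe sets were compressed in this set. Psmb7, which carries the trypsin-like activity, had -1.19, -0.35 and 1.14 residual SDs in linalool rats and -1.15, -0.26 and 1.79 in stress rats. Its difference was -0.128 (adjusted p = 0.895). A difference in these genes was not detectable, which does not show that they stayed level. With each array centred on its median, the 3 probe sets of Psmb5 and that of Psmb7 passed as higher (adjusted p = 0.0358), as did 88.7% of all probe sets.

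Of the non-catalytic beta subunits, 2 of 4 rose. Psmb3 had 10.65, 10.72 and 10.84 log2 signal in linalool rats, against 10.39, 10.43 and 10.51 in stress rats, with no overlap. Its mean was 10.73 ± 0.0797 in linalool rats and 10.44 ± 0.0453 in stress rats (SD, n = 6 each), a difference of 0.29 (SE 0.0366, adjusted p = 0.000525, limma). Psmb4 had 10.97, 11.02 and 11.15 in linalool rats, against 10.76, 10.83 and 11.03 in stress rats. It rose by 0.21 (SE 0.0499, adjusted p = 0.0131), and its groups overlapped through stress rat 2. Psmb1 missed the threshold at 0.11 log2 units (SE 0.0375, adjusted p = 0.0547), and Psmb2 had 0.606 residual SDs (adjusted p = 0.483).

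In the ATPase ring of the cap 7 of 9 probe sets and 5 of 6 genes rose, and the median was 2.94 residual SDs. Psmc4 probe set 1398869_at had 10.57, 10.62 and 10.65 log2 signal in linalool rats, against 10.39, 10.44 and 10.47 in stress rats. The groups did not overlap, with means of 10.62 ± 0.0342 in linalool rats and 10.43 ± 0.0348 in stress rats (SD, n = 6 each), a difference of 0.18 (SE 0.0195, adjusted p = 0.000239, limma). The other probe set of Psmc4, 1381794_at, differed by 0.0153 residual SDs (adjusted p = 0.988). Psmc6 rose at all 3 of its probe sets. Its 1379850_at had 9.62, 9.67 and 9.71 in linalool rats, against 9.10, 9.31 and 9.40 in stress rats, a difference of 0.39 (SE 0.0415, adjusted p = 0.000243). Its 1384323_at rose by 0.18 log2 units (SE 0.0353, adjusted p = 0.005) and its 1382385_at by 2.94 residual SDs (adjusted p = 0.00458), and the groups overlapped in none of the 3. Psmc3 rose by 0.28 (SE 0.0341), Psmc5 by 0.25 (SE 0.029) and Psmc1 by 0.19 (SE 0.0494) on the log2 scale, with adjusted p of 0.00044, 0.000342 and 0.019. Psmc2 did not pass, at 0.773 residual SDs (adjusted p = 0.36).

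**Figure D2:**
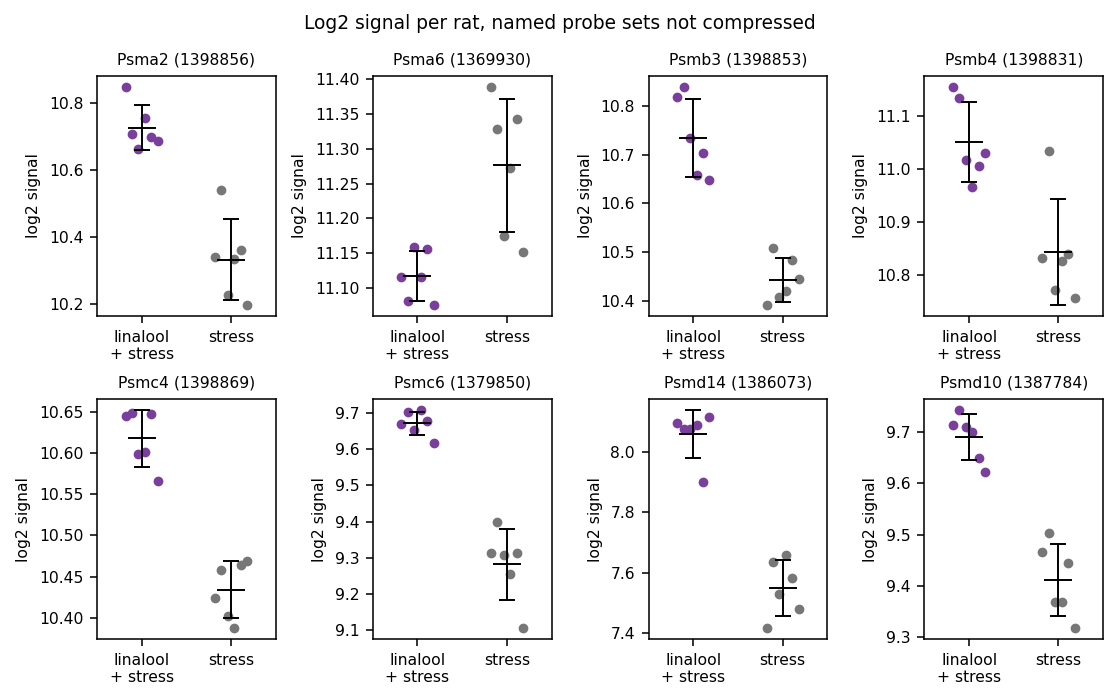
Log2 signal in each rat for the 8 probe sets given rat by rat that passed the test and were not compressed, linalool under stress at the left and stress alone at the right of each panel; the black bar is the mean with its SD over 6 rats. Psma6 is the panel in which linalool rats lie lower, Psmb4 overlaps through 1 high stress rat, and the other 6 panels show no overlap.

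In the Psmd group, 11 of 20 probe sets rose and 1 fell. All 3 probe sets of Psmd14, the deubiquitinase that removes the chain before the substrate enters, rose. The widest gap was at 1386073_at, with 7.90, 8.08 and 8.11 log2 signal in linalool rats, against 7.42, 7.56 and 7.66 in stress rats. The mean was 8.06 ± 0.0784 in linalool rats and 7.55 ± 0.0934 in stress rats (SD, n = 6 each), and the difference of 0.51 (SE 0.0488, 5.89 residual SDs, adjusted p = 0.000144, limma) was the furthest from 0 of the 44 in residual SDs. Its 1383429_at rose by 0.28 (SE 0.0359, adjusted p = 0.000562) without overlap, and its 1394082_at by 0.22 (SE 0.0453, adjusted p = 0.00556) with overlap. Psmd7, the partner of Psmd14 in the lid, rose at 1379322_at (2.88 residual SDs, adjusted p = 0.00544) and not at 1389245_at (1.62, adjusted p = 0.0734).

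The chaperones of cap assembly rose in 3 of 4 probe sets. Psmd10, also known as gankyrin, had 9.62, 9.71 and 9.74 log2 signal in linalool rats, against 9.32, 9.41 and 9.50 in stress rats. It averaged 9.69 ± 0.045 in linalool rats and 9.41 ± 0.0709 in stress rats (SD, n = 6 each), with no overlap and a difference of 0.28 (SE 0.0336, adjusted p = 0.000419, limma). Psmd9 rose at 1368184_at (2.87 residual SDs, adjusted p = 0.00567) and had 0.048 residual SDs at 1397686_at. Psmd5 rose by 1.98 residual SDs (adjusted p = 0.0295), a call that was lost in 6 of the 12 fits that each leave out 1 array. Without these chaperones the cap kept a median of 2.80 residual SDs, with 15 of 25 probe sets higher.

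Scaffold, receptor and lid subunits were mixed. Psmd2 of the scaffold rose by 3.36 residual SDs (adjusted p = 0.00258), while Psmd1 had 0.382 (adjusted p = 0.667). Psmd4, the ubiquitin receptor, rose by 2.25 (adjusted p = 0.0179). Among 8 probe sets of the other lid subunits, Psmd12 (0.25 log2 units, SE 0.0491, adjusted p = 0.00525) and Psmd13 (3.11 residual SDs, adjusted p = 0.00378) rose. Psmd3, Psmd6 and Psmd8 had 0.452, 1.44 and 1.34 residual SDs and did not pass. Psmd11 had 1 probe set that fell, 1376069_at. It was compressed, with -3.97, -2.91 and -1.67 residual SDs from the mean in linalool rats and 1.36, 2.77 and 4.38 in stress rats. The groups did not overlap at a difference of -5.67 (adjusted p = 0.000302, limma), but quantile normalization left -0.265 without a call and median centring gave 1.45, where the median of all probe sets was 1.48. Its other probe sets had -0.582 (1374712_at) and -0.753 (1380252_at) and did not pass. Of the 7 genes with more than 1 probe set, 3 had the same call on all of them: Psmb5 with none, and Psmc6 and Psmd14 with every probe set higher.

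Set side by side, the cap had 18 probe sets higher and 1 lower of 29 (62.1% higher) with a median of 2.80 residual SDs, and the core 6 higher and 1 lower of 15 (40%) with a median of 1.59. By gene, 14 of 20 cap genes and 6 of 13 core genes had at least 1 probe set that rose. In Psmd2, Psmd4, Psmd5, Psmd7, Psmd9 and Psmd13 of the cap, and Psma1 and Psma4 of the core, only compressed probe sets rose. None of those compressed probe sets passed with quantile normalization. The ranges of differences in the 2 parts overlap widely, from -5.67 to 5.89 in the cap and from -2.21 to 4.57 in the core. Among members that were not compressed, all 11 of the cap rose, and 4 of 6 in the core rose with 1 lower. Among compressed members, 7 of 18 in the cap and 2 of 9 in the core rose. The subunits were not tested cap against core.

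**Figure D3:**
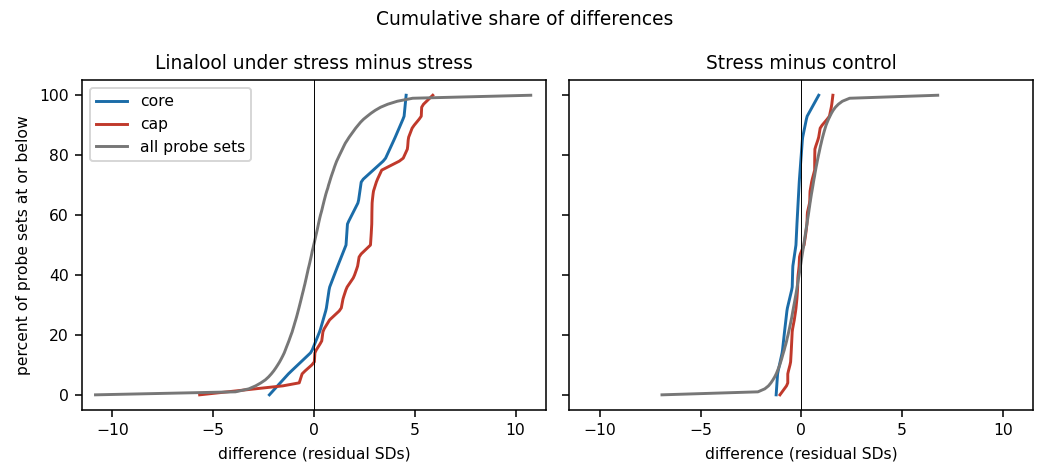
Cumulative share of probe sets, in percent, by their difference in residual SDs, for core, cap and all probe sets; linalool under stress minus stress on the left, stress minus control on the right. Under linalool the medians are 2.80 in the cap, 1.59 in the core and -0.0136 over all probe sets, and in the right panel they are 0.135, -0.267 and 0.12.

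Rat by rat, the mean level of the cap in linalool rats 1 to 6 was 1.42, 1.36, 1.13, 0.824, 0.72 and 1.21 residual SDs from the mean of the 12 arrays. In stress rats 1 to 6 it was -1.31, -0.236, -1.23, -1.25, -0.897 and -1.72. The core level was 1.17, 1.06, 0.725, 0.407, 0.684 and 0.676 in linalool rats and -0.878, 0.399, -1.43, -0.613, -0.534 and -1.67 in stress rats. Stress rat 2 was the highest of its group in both, and its core level was 0.399, just below the 0.407 of linalool rat 4. After removal of the group means, members correlated pairwise over the 12 arrays at a median r of 0.227 (946 pairs, from -0.799 to 0.940), with 0.309 within the core, 0.190 within the cap and 0.262 between them. These pairs share arrays and their scaling.

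**Figure D4:**
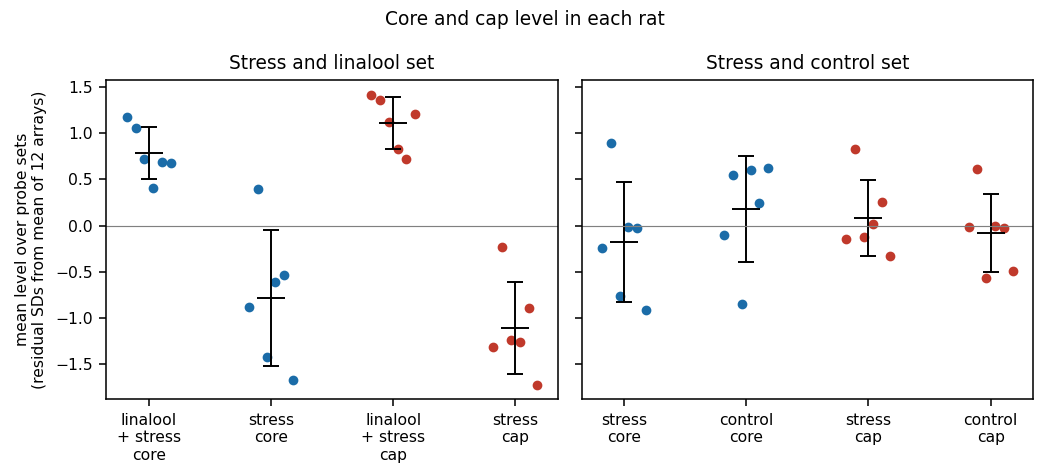
Mean level of the 15 core and 29 cap probe sets in each rat, in residual SDs from the mean of the 12 arrays of the set; black bars are the group mean with its SD over 6 rats. Linalool and stress rats do not overlap for either, and stress and control rats overlap for both.

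Restraint alone gave no proteasome probe set past the test. Of the 44 members 0 passed between stress and control rats with limma, and 0 with an unmoderated t, where 0.554% of all probe sets passed (0.341% higher, 0.213% lower). The lowest adjusted p was 0.238. At an unadjusted p under 0.05 there were 3 members, Psmc5, Psmd1 and Psmd9 (1368184_at), all higher, where 16% of all probe sets were that low (9.33% higher). No member had groups that did not overlap, as 1.78% of all probe sets did (1.07% higher). Only 8 members were not compressed in this set, and 0 of them passed, where 1.16% of such probe sets were higher and 0.685% lower.

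The differences under restraint ranged from -1.25 to 1.57 residual SDs. In the core 3 of 15 were positive, with a median of -0.267. With arrays centred on their medians the core median was 1.10, and so was that of all probe sets. In the cap 15 of 29 were positive, with a median of 0.135, and over all probe sets the median was 0.12 on the scale as deposited. The core level ranged from -0.918 to 0.892 in stress rats and from -0.852 to 0.628 in control rats, and the cap level from -0.332 to 0.832 in stress rats and from -0.57 to 0.61 in control rats. After removal of the group means, pairs of members correlated over these 12 arrays at a median r of 0.207, with 0.370 within the core and 0.185 within the cap.

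Psmb5 and Psmb7 could be read on the log2 scale in this set. Psmb5 (1371348_at) had 11.02, 11.07 and 11.22 log2 signal in stress rats, against 11.05, 11.17 and 11.22 in control rats, a difference of -0.06 (SE 0.0422, adjusted p = 0.482, limma). Psmb7 had 10.12, 10.16 and 10.24 in stress rats, against 10.10, 10.13 and 10.18 in control rats, a difference of 0.03 (SE 0.0215, adjusted p = 0.462). Stress and control rats overlapped in both. The other probe sets of Psmb5 were compressed: 1385531_at had -2.68, -0.278 and 0.758 residual SDs in stress rats and -0.375, 0.253 and 1.63 in control rats, a difference of -0.944 (adjusted p = 0.424). The third, 1385532_x_at, had -2.14, 0.0719 and 1.13 in stress rats and -0.942, 0.037 and 0.866 in control rats, a difference of -0.1 (adjusted p = 0.946).

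The smallest p in each subgroup came from Psma5, Psmb3, Psmc5 and Psmd1. Psmc5 had 11.44, 11.47 and 11.53 log2 signal in stress rats, against 11.28, 11.33 and 11.55 in control rats, a difference of 0.11 (SE 0.0448, adjusted p = 0.27, limma). Of the 6 control rats, 5 lay below every stress rat and control rat 2 lay above them all. The 3 lowest control values were those of control rats 4 to 6, in which the level of meningeal markers was also highest (0.825, 1.78 and 1.73 residual SDs). A link between Psmc5 and these markers was not tested. Psmd1 had -0.034, 0.823 and 1.48 residual SDs in stress rats and -2.12, -0.955 and 1.03 in control rats (difference 1.57, adjusted p = 0.238). Psma5 had -2.1, -0.562 and 1.15 in stress rats and -0.638, 0.517 and 2.03 in control rats (difference -1.18, adjusted p = 0.343). Psmb3 had -1.79, -0.924 and 1.31 in stress rats and -0.738, 0.788 and 1.67 in control rats (difference -1.25, adjusted p = 0.329). The groups overlapped for each of these genes.

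Genes that act beside the subunits were read from 7 lists, 69 probe sets of 37 genes that are not members. Under linalool 15 rose and 9 fell (21.7% and 13%, where 14.2% and 10.8% of all probe sets did), with a median of 0.0344 residual SDs. Core assembly had 2 of 5 higher: Pomp, the maturation factor of the core, had 11.10, 11.21 and 11.31 log2 signal in linalool rats, against 10.76, 10.81 and 10.93 in stress rats, a difference of 0.39 (SE 0.0371, adjusted p = 0.000146, limma) without overlap. Psmg2, a chaperone of the alpha ring, rose by 4.07 residual SDs (adjusted p = 0.00108). Sem1, a small subunit of the lid outside the naming pattern, had 10.85, 10.91 and 10.97 in linalool rats, against 10.51, 10.58 and 10.68 in stress rats, a difference of 0.32 (SE 0.0316, adjusted p = 0.000167). Adrm1, another ubiquitin receptor of the cap, fell by 3.16 residual SDs (adjusted p = 0.00331).

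The alternative cap PA28 and the inducible catalytic subunits had 2 of 6 probe sets higher. Of all probe sets, 14.2% were higher and 10.8% lower. Psme1 (1367663_at) had 10.32, 10.35 and 10.47 log2 signal in linalool rats, against 9.86, 10.11 and 10.19 in stress rats, a difference of 0.29 (SE 0.0517, adjusted p = 0.00321, limma), and Psme2 rose by 1.93 residual SDs (adjusted p = 0.0334). The other probe set of Psme1, 1394006_at, did not pass. Psmb8, Psmb10 and Psmb9 had 1.5, 1.23 and 0.777 residual SDs and did not pass. The other activators and inhibitors had 0 higher and 3 lower of 10: 2 probe sets of Ecpas, a scaffold that binds the proteasome (-2.27 residual SDs and -0.14 log2 units, adjusted p = 0.0157 and 0.0222), and Psmf1, an inhibitor of the core (-2.13 residual SDs, adjusted p = 0.0243).

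Upstream of the proteasome, all 4 probe sets of Uba6, an enzyme that activates ubiquitin, rose. The smallest p was at 1376157_at, with 7.97, 8.02 and 8.12 log2 signal in linalool rats, against 7.64, 7.69 and 7.73 in stress rats, a difference of 0.34 (SE 0.0252, adjusted p = 4.52e-05, limma). Uba1, the main enzyme of this kind, did not pass (adjusted p = 0.993). Shuttle factors and the p97 complex had 2 higher and 2 lower of 15 (13.3% each), near the 14.2% and 10.8% of all probe sets. Vcp (2.08 residual SDs, adjusted p = 0.0239) and 1 probe set of Ufd1 (2.46, adjusted p = 0.0114) rose. Of Nploc4 (-3.47, adjusted p = 0.00253) and Ubqln2 (-2.14, adjusted p = 0.0212), 1 probe set each fell.

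Transcription factors and inducers linked to proteasome genes had 4 higher and 3 lower of 18 (22.2% and 16.7%, where 14.2% and 10.8% of all probe sets did). Nfe2l2 rose by 2.96 residual SDs (adjusted p = 0.00448), and 1 probe set of Nfe2l1, the factor known to drive proteasome genes when the proteasome is blocked, fell (-1.78, adjusted p = 0.0446). Of the NF-Y subunits, both probe sets of Nfyb rose (0.13 log2 units, adjusted p = 0.0241, and 1.95 residual SDs, adjusted p = 0.0314), as did 1 of Nfya (1.83 residual SDs, adjusted p = 0.0383). Zfand5, which binds the proteasome, fell by 0.39 on the log2 scale at 1375130_at (adjusted p = 0.00173, limma). Nrf1, a gene apart from Nfe2l1, fell by 2.41 residual SDs at 1381895_at (adjusted p = 0.0123). The other probe set of Nfya and those of Nfyc, the third NF-Y subunit, did not pass. Neither did the other probe sets of Nfe2l1, Zfand5 and Nrf1.

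Between stress and control rats, 0 of the 69 passed with limma, where 0.554% of all probe sets did. An unadjusted p under 0.05 was found for 9 of the 69, where 16% of all probe sets were that low. The smallest p per list belonged to Psme1 and Psmb8, Psmf1 and Ecpas, Psmg3 and Pomp, Adrm1 and Uchl5, Nploc4 and Ubqln2, 2 probe sets of Uba6, and Nfe2l2 and Zfand5. Adrm1 had 2.12 residual SDs (adjusted p = 0.141) and Psmf1 2.08 (adjusted p = 0.149), and Nfe2l2 had -0.14 log2 units (adjusted p = 0.213).

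Markers of other cells were read beside these results. Under linalool, meningeal markers had 0 of 22 probe sets past the threshold, with a mean level of -0.588 to 0.702 residual SDs in linalool rats and -0.782 to 0.759 in stress rats. Neuronal markers had 2 of 6 lower, with -1.32 to 0.109 in linalool rats and -0.0948 to 1.14 in stress rats, and astrocyte markers 1 of 5 lower, with -0.935 to 0.259 in linalool rats and -0.184 to 1.26 in stress rats. Of the others, oligodendrocyte markers had 1 of 7 lower, microglial 1 of 4 higher and endothelial 1 of 9 higher. Of all probe sets, 14.2% were higher and 10.8% lower in this comparison. Between stress and control rats, meningeal markers had a median of -1.39 residual SDs with 0 of 22 past the threshold, where 0.554% of all probe sets passed. Their level was -0.745 to -0.256 in stress rats and -1.01 to 1.78 in control rats. The part of these cells in the results was not tested.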

How the data were processed

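Per the labels' protocols, biotin-labelled cRNA from 500 ng of total RNA of each block was hybridized to a 3' expression array. The log2 values per probe set were deposited by the authors, who normalized the 2 sets apart, per the series design text; the scale was read from the range of 5.59 to 14.93, and the summarization and normalization methods are not given in the sources used here. Array number limits the precision. From these values, a model of the 2 groups per set was fitted in R 4.3.3 by limma 3.58.1 (functions lmFit and eBayes, two-sided, no filter) over 31042 probe sets, without 57 array controls, which were adjusted among themselves. Symbols came from the platform annotation (20826 probe sets with 1 symbol, 436 with several, 9780 with none listed), and all 44 members matched RefSeq by gene identifier. The labels name separate rats.

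The members, gene lists and markers were chosen with earlier results of these data known. Values by rat are given for the catalytic subunits and, per subgroup, for up to 2 probe sets higher and 2 lower with the smallest p past the threshold, or else the 1 with the smallest p. List members past the threshold and the 2 with the smallest p per list are named. Alternatives were quantile normalization, median centring, 1 probe set per gene (the one with the highest mean), leaving out dim probe sets, an unmoderated t, a trended robust prior, a replicate block, leaving out arrays, and for stress against control a meningeal covariate. The fit was tested on simulated data.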

Additional observations from a re-analysis of the deposited data

Results flagged for a closer look

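In groups of 6 rats, 44 groups of values of the named probe sets were searched for a lowest or highest rat far from the rest, and 2 were found, where chance gives about 5%. For Psmd14 (1386073_at), linalool rat 5 had 7.90 log2 signal, against 8.08 to 8.11 in the other linalool rats, and its gap to the nearest was 0.823 of the group's range. It still lay above every stress rat. For Psmb4 (1398831_at), stress rat 2 had 11.03 log2 signal in the set with linalool, against 10.76 to 10.84 in the other stress rats, a gap of 0.700 of the range, and this rat makes the groups overlap.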

How the results depend on the processing

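Under linalool, counts of 24 higher and 2 lower were unchanged with an unmoderated t and with a trended robust prior. In each, 13.8% of all probe sets were higher, and 10.3% and 10.4% lower. Without dim probe sets the counts over 38 members were again 24 and 2, where 23.4% of all were higher and 14.3% lower. Of the first 24, 23 were tested there and all 23 stayed higher. With 1 probe set per gene the counts were 20 and 2 of 33 genes, where 20% of all were higher and 9.71% lower. The other pathway genes called were then 15, against 24 probe sets, and 67.4% of all calls were higher, against 56.7%. Leaving out each array in turn gave 23 to 26 higher and 2 to 3 lower, where 12.1% to 13.9% and 8.49% to 10.6% of all did. In all 12 fits 23 of the 24, without Psmd5, were called. Quantile normalization called 16 members (15 higher, 1 lower), 11 higher in the cap and 10 other pathway genes, with a cap median of 1.25 residual SDs, and 2608 probe sets in all, against 7763, and it moved the median of all probe sets to 0.536. It turned Psmb5 1371348_at to -1.38, Psmb7 to 0.110 and Psma1 to -0.56, and left Psmd11 1376069_at at -0.265. Median centring called 44 (43 higher, 1 lower), 14 higher in the core and 29 in the cap, and 66 other pathway genes, with a cap median of 1.54, while it called 28990 probe sets in all, 94.9% of them higher, and moved the median of all probe sets to 1.48 residual SDs. It turned Psmb7 to 1.5 and Psmd11 1376069_at to 1.45. The cause was not tested. Leaving out an array moved Psmb7 between -0.388 and 0.257.

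Between stress and control rats 0 members passed under every alternative run, with lowest adjusted p from 0.0643 (without control 2) to 0.366, while all calls went between 0 and 205. Quantile normalization turned Psmb5 1385531_at to 0.324 and 1385532_x_at to 0.649, Psma5 to 0.622 and Psmb3 to 0.733, all below the median of all probe sets, which moved to 0.877. Median centring gave these 4 1.07, 1.10, 1.10 and 1.10 and the core a median of 1.10, while the median of all probe sets was also 1.10. Without controls 4 to 6, Psmb5 1385532_x_at was at 0.00155, and leaving out single arrays moved it between -0.349 and 0.438. Array controls called were 0 to 4 when single arrays were left out, against 1.

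By the labels, rats of different groups share only a number. Same-numbered deviations correlated at -0.105 to 0.182 (linalool and stress) and 0.0755 to 0.223 (stress and control). The stress rat that correlated best with a linalool rat had the same number in 1 of 6 cases. The control rat that correlated best with a stress rat did in 3 of 6. The reverse direction was not read. With the rat number as a replicate block, 22 members were higher and 2 lower under linalool, where 10.6% and 7.26% of all probe sets were. Between stress and control rats, 0 members and 0 array controls passed with this block.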
